A study of Mus musculus with 59 samples.

Results

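Stretches of chromatin that carried acetylated H3 lysine 27 (H3K27ac) within a domain of trimethylated H3 lysine 27 (H3K27me3) were followed across mouse brainstem tumours with the H3f3a K27M change. H3K27ac peaks of 11 tumours were merged into 97498 autosomal regions. A region was a member when, in 5 or more of the 6 K27M tumours, 1 of its H3K27ac peaks and an H3K27me3 island called in that tumour shared at least 1 bp, an island being an interval of enriched H3K27me3 signal. This rule found 1856 members among the 21477 regions that held an H3K27ac peak in 5 or more K27M tumours, called recurrent regions here. The members were chosen by the peaks and islands called in the K27M tumours, so these values, and any contrast of K27M with WT tumours at the members, are given as a description.

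K27M tumours carried Nestin-creERT2, one H3f3aLSL-K27M-Tag allele, LSL-PDGFRαV544ins and Trp53flox/flox. WT tumours had an H3f3aLSL-WT-Tag allele in its place, and shared with the K27M tumours both the mutant PDGFRα and the loss of Trp53, so the tagged wild-type histone is the control and not an unmodified brain. H3K27me3 and H3K27ac were profiled in 6 K27M tumours (BT-1 to BT-6) and 5 WT tumours (BT-7 to BT-11), with H3K4me3 lists for 2 of the former and 3 of the latter. Cultured neurospheres, which grow as floating clusters of neural precursors, came from e15.5 embryonic brains and carried Nestin-cre with the K27M-Tag or WT-Tag allele, without the PDGFRα and Trp53 alleles in their labelled genotype. H3K27me3 was profiled in 3 K27M and 3 WT hindbrain cultures and in 3 K27M forebrain cultures. Recombination was driven from Nestin, a gene of neural precursors, so host cells in which no recombination took place enter a tumour library wherever they are present.

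H3K27me3 is written by Polycomb repressive complex 2 and marks silenced genes, whereas CBP and p300 place H3K27ac at active promoters and enhancers. Both modifications use the same lysine, so a single histone tail cannot carry them together. H3K4me3 marks promoters, and promoters with H3K4me3 and H3K27me3 are known as bivalent in embryonic and neural precursor cells. Every library came from many cells, so marks called at one region may have come from different cells, and fewer cells with a mark cannot be told apart from less of it per cell.

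The overlap was found in all 6 K27M tumours at 981 members (52.9%) and in 5 at 875. At the threshold, the 946 regions with the overlap in 4 K27M tumours had a median width of 1406.5 bp and the 875 with 5 had 1613 bp. The mean number of WT tumours with the same overlap was 1.61 for the regions with 4 K27M tumours and 2.11 for those with 5, and rose to 2.96 for the members with 6. Members were on every autosome and made up between 5.38% of the recurrent regions of chromosome 17 and 10.7% of those of chromosome 7.

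In WT tumours the members were mostly still acetylated, and differed from one tumour to another in whether an island was called over them. An H3K27ac peak was present at 94.2% of members in BT-7, 84.3% in BT-8, 82.0% in BT-9, 95.9% in BT-10 and 87.2% in BT-11. The peak overlapped an island at 56.2% of members in BT-7, 28.6% in BT-8, 58.0% in BT-9, 72.7% in BT-10 and 40.3% in BT-11, a mean of 51.2% ± 17.0 (SD, n = 5). The most frequent other state was a peak with no island at the peak, at 37.6% ± 14.2 of members (SD, n = 5). An island without a peak was found at 9.09% ± 5.00 and neither mark at 2.18% ± 1.86 of members (SD, n = 5). By the rule, K27M tumours were high: the overlap was present at 76.8% of members in the lowest, BT-5, at a median of 96.1%, and at 98.5% in the highest, BT-6. No WT tumour reached the lowest K27M tumour.

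**Figure D1:**
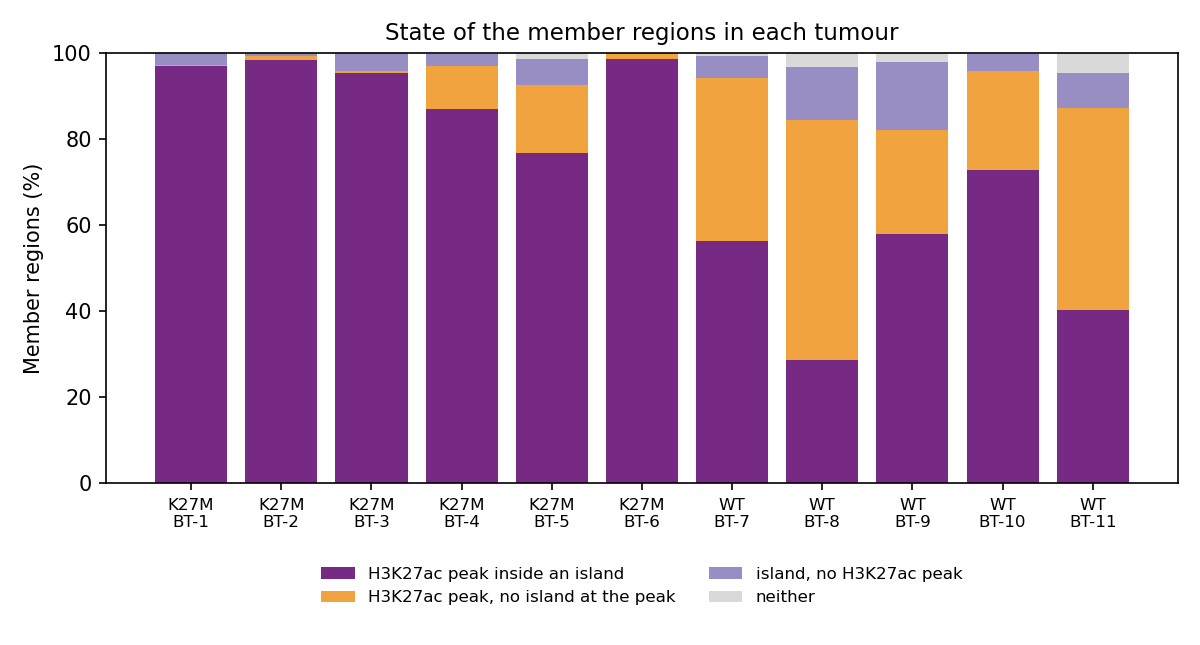
State of the 1856 member regions in each tumour, as a percentage of members (y axis, 1 bar per tumour). The purple share, a peak inside an island, is 76.8% to 98.5% in the K27M tumours, where the rule set it, and 28.6% to 72.7% in the WT tumours, whose remaining members are mostly orange (peak, no island at the peak).

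Across both genotypes, the length of genome under islands did not order the tumours in the same way. K27M BT-5 had the shortest autosomal island length, 67.1 Mb, and 76.8% of members with both marks, whereas WT BT-11 had 77.6 Mb and 40.3%. WT BT-8 had 163 Mb under islands and 28.6% of members with both marks, and WT BT-10, with the longest length of any tumour at 302 Mb, had 72.7%. Apart from BT-8, the WT share rose with length, with 195 Mb and 56.2% in BT-7 and 201 Mb and 58.0% in BT-9. Among K27M tumours, the shortest lengths, in BT-5 and BT-4 (121 Mb), came with the lowest shares, 76.8% and 87.0%. BT-6, however, had almost the same length as BT-4, 122 Mb, and the highest share, 98.5%. An effect of island length was not tested. Sex was unequal between the genotypes, with 4 of 6 K27M and 1 of 5 WT tumours male. Among female tumours alone, the share with both marks was 76.8% and 98.5% in the 2 K27M tumours, values set by the rule. It was 28.6% to 72.7% in the 4 female WT tumours. When left out of the choice of regions, as described below, female BT-5 held 56.3%, under the 67.2% of female WT BT-10. Left out in the same way, female BT-6 held 89.6%, and BT-10 held 70.7%. An effect of sex on this share was not tested.

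To give K27M tumours a value that their own lists had not set, the regions were chosen again with 1 K27M tumour left out, asking for the overlap in 4 or more of the other 5. These choices gave 2003 to 2531 regions. The tumour left out then held both marks at 89.8% (BT-1), 90.2% (BT-2), 85.0% (BT-3), 68.8% (BT-4), 56.3% (BT-5) and 89.6% (BT-6) of them, a mean of 79.9% ± 14.2 (SD, n = 6). Single WT tumours held both at 24.2% to 72.6% of the same regions. The left-out tumour was above all 5 WT tumours for 4 of the 6 choices, and for BT-4 and BT-5 it was below BT-10, which held 69.3% and 67.2%. The tumours differed in the number of islands, with 13856 in BT-4, 10716 in BT-5 and 13251 in BT-6, whose left-out share was high, and 33190 in BT-10. The lists were therefore also cut to the same number of strongest islands (10716, by reads) and peaks (35530, by fold enrichment) in every tumour. With equal lists the left-out K27M tumour held both marks at 63.8% to 91.4% of regions and single WT tumours at 18.9% to 46.4%, and the K27M tumour was above all 5 WT tumours in each of the 6 choices. The 6 choices share tumours, and no test was made across them. Over all H3K27ac peaks of a tumour, 13.8% ± 5.07 overlapped an island in K27M (SD, n = 6) and 7.91% ± 3.50 in WT tumours (SD, n = 5). The K27M mean was thus also higher over all peaks, with overlapping ranges (7.63% to 21.9% and 3.80% to 13.2%).

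**Figure D2:**
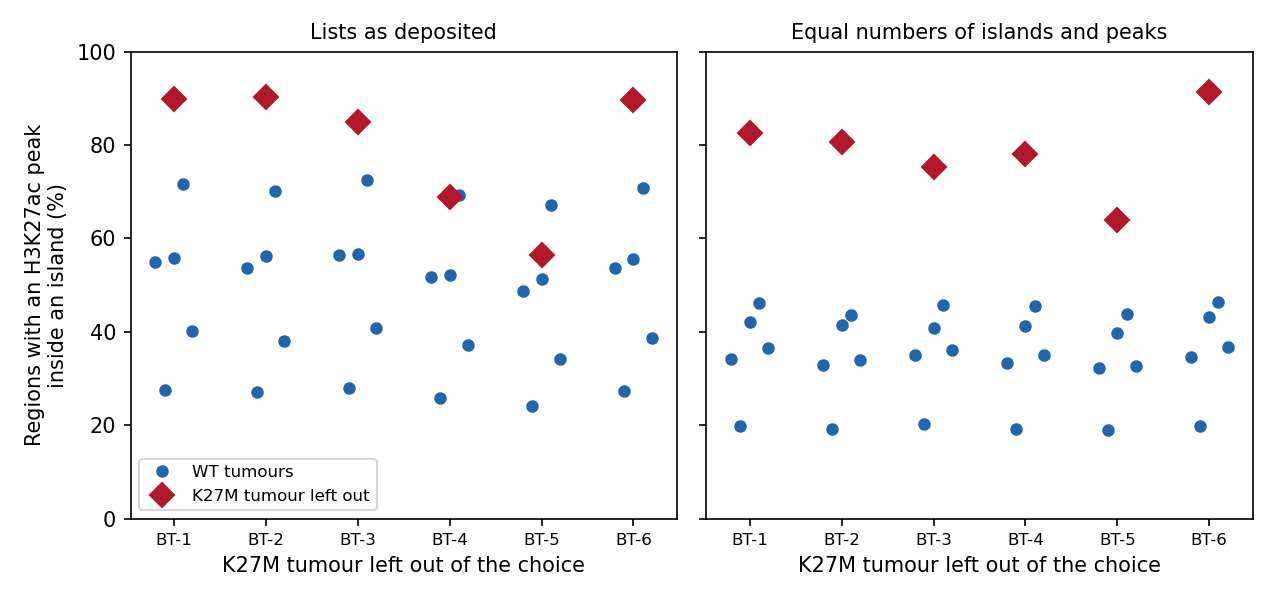
Share of regions with an H3K27ac peak inside an island (y axis, percent) when the regions were chosen without the K27M tumour named on the x axis. Red diamonds are that K27M tumour and blue points the 5 WT tumours, with the lists as deposited on the left, where BT-4 and BT-5 fall below the highest WT tumour, and with equal numbers of islands and peaks on the right, where every diamond lies above every WT point.

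The same choice made from WT tumours found fewer regions, many of them members. With the overlap required in 4 or more of the 5 WT tumours, 919 regions were found. Of these, 610 were members, which is 66.4% of the WT-chosen regions and 32.9% of the members. K27M tumours held both marks at 67.4% to 88.9% of the WT-chosen regions, so these were largely shared, and 21 of the 919 had the overlap in no K27M tumour.

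Members ranged from those without the overlap in any WT tumour to those with it in all of them. It was found in 0, 1, 2, 3, 4 and 5 WT tumours at 237, 294, 356, 359, 385 and 225 members. At 72 members it was present in all 6 K27M tumours and no WT tumour. These are 0.0738% of all merged regions, and by the rule every region of this kind is a member. The opposite pattern, all 5 WT tumours and no K27M tumour, occurred at 5 merged regions (0.00513%). At 166 members the overlap was present in all 11 tumours.

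The 5 strongest regions among the 72 were acetylated in every WT tumour. The first, on chromosome 14 from 106288542 to 106296373 (mm9), was the member with the strongest H3K27ac of all. Its peak stood at percentile 98.9 to 99.7 of its own list by fold enrichment in the K27M tumours. In WT tumours it stood at 99.6 in BT-7, 99.985 in BT-8, 90.4 in BT-9, 97.8 in BT-10 and 98.3 in BT-11. Its islands in BT-1 to BT-6 were 8.6, 2.6, 4.8, 2.8, 2.4 and 8.8 kb wide, and no WT tumour had an island there. It was under no island in any of the 9 neurosphere libraries. H3K4me3 was called there in all 5 tumours profiled. The region on chromosome 14 from 35315915 to 35317877 had islands of 2.4 to 28.8 kb in the K27M tumours and none in WT tumours, with peaks at percentile 98.2 to 99.98 in the WT lists. Chromosome 3, 121128216 to 121134097, was of the same kind, with islands of 2.0 to 10.0 kb in the K27M tumours. At all 3 sites the WT tumours had peaks and no island.

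The strongest members by mean percentile in the K27M tumours also included regions with broad islands. On chromosome 2, 147006337 to 147018020, the K27M islands were 21.8 kb wide in BT-1, the narrowest, with a median of 27.6 kb and up to 32.8 kb in BT-6. The WT islands were 7.6 kb in BT-7, 8.8 kb in BT-9, 18.2 kb in BT-10 and 11.6 kb in BT-11, and none was called in BT-8. Every WT island called there was narrower than the narrowest K27M island. On chromosome 3, 88002100 to 88031207, K27M islands spanned 20.6 to 70.2 kb and the 4 WT islands 4.6 to 23.6 kb, and the ranges overlapped. On chromosome 13, 83852405 to 83882520, K27M islands spanned 12.8 to 39.0 kb and the 4 WT islands 3.0 to 13.4 kb. Neither of the last pair was under an island in any neurosphere library.

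Members inside the widest islands included weak and strong peaks, with mean K27M percentiles of 43.8 to 97.3 for the first 5. The widest belonged to chromosome 11, 96201297 to 96204364, with a median of 297.4 kb over the K27M tumours. Its islands were 120.6 to 400.4 kb in K27M tumours and 11.4, 401.8, 401.2, 423.0 and 120.6 kb in BT-7 to BT-11, and the groups overlapped. The island on chromosome 15 around 102916372 to 102917012 was 18.4 to 301.2 kb wide in K27M tumours, with a median of 290.3 kb, and 17.0 to 69.8 kb in WT tumours. The groups overlapped, since the islands of BT-3 and BT-5 were 18.4 and 25.6 kb wide. On chromosome 5, 140060674 to 140061824, all 11 tumours had an island, 12.8 to 140.2 kb wide for K27M, and for WT 14.4 to 126.2 kb. An H3K27ac peak was called there in the 6 K27M tumours only, at percentile 11.8 to 72.9, and in none of the 5 WT tumours. Only 13 members (0.700%) had an H3K27ac peak in no WT tumour. The rule required peaks in K27M tumours, so the contrast of genotypes at this member is a description. The 3 regions on chromosomes 11, 15 and 5 lay under islands in each of the 9 neurosphere libraries.

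Of the 166 members with both marks in all 11 tumours, 165 carried H3K4me3 in all 5 tumours profiled. The strongest, chromosome 6 from 52106073 to 52124106, was 18034 bp wide and under an island in all 9 neurosphere libraries. Its K27M islands were 133.4, 188.6, 141.8, 183.8, 37.0 and 207.0 kb wide in BT-1 to BT-6. Its WT islands were 10.4, 2.0, 10.8, 12.8 and 4.4 kb wide in BT-7 to BT-11. The overlap was thus called in every tumour, yet the widths did not overlap between genotypes. The next, chromosome 11 from 118916879 to 118919515, had K27M islands of 27.8 to 61.6 kb and WT islands of 21.4 to 33.4 kb. The 1 member of the 166 with H3K4me3 in no tumour was on chromosome 5 from 34034491 to 34036153, with peaks at percentile 61.1 to 78.1 in K27M lists and 16.4 to 55.0 in WT lists.

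Islands that held a member were wider and denser than other islands of the same tumour. In WT tumours their median width was 6.80 ± 2.11 kb against 5.08 ± 1.30 kb for all islands (SD, n = 5), and the holding islands stood at a median density percentile of 68.9 ± 3.19 by reads per kb. In K27M tumours the widths were 8.63 ± 1.94 kb and 5.27 ± 1.22 kb and the density percentile 79.1 ± 9.20 (SD, n = 6). The summit of the peak, its position of highest signal, lay inside the island in 96.6% ± 1.51 of cases in K27M and 92.0% ± 3.87 in WT tumours. The median distance from the summit to the nearer island edge was 2.94 ± 0.707 kb in K27M and 1.99 ± 0.639 kb in WT tumours. Within 1 kb of an edge lay 13.8% ± 9.34 of these summits in K27M and 28.02% ± 10.2 in WT tumours. Most of these summits thus lay more than 1 kb from an edge, although 43.2% in WT BT-11 and 30.4% in K27M BT-5 lay within it. The 2 ranges of median distance overlapped between genotypes (1.67 to 3.55 kb and 1.20 to 2.90 kb). As a share of island width, the median distance was 0.335 ± 0.0130 in K27M and 0.298 ± 0.00977 in WT tumours. Whether this differs from random placement within islands was not tested. Where a WT tumour had a peak and no island at it, the nearest island lay a median of 38.6 ± 20.4 kb away (SD, n = 5), and 20.9% ± 6.04 of such peaks had one within 5 kb. For recurrent regions without the overlap in any K27M tumour, 9.40% ± 5.27 of peaks in WT tumours were within 5 kb of an island.

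Several members could share an island. Islands of the 6 K27M tumours merged into 42331 autosomal intervals, of which 1484 (3.51%) held members. Most of these, 1217, held 1 member, 200 held 2 and 67 held 3 or more. The largest cluster, 11 members within 167.2 kb on chromosome 7 from 86627801 to 86795000, had H3K4me3 in all 5 tumours at 5 of its members. The next held 8 members on chromosome 2 from 164914401 to 165105400, with H3K4me3 in all 5 tumours at 3. On chromosome 11, 23942401 to 24007800, all 6 members had H3K4me3 in all 5 tumours, and 5 of the 6 were under an island in all 3 WT hindbrain libraries. Members in 1 island are neighbours and not independent sites.

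H3K4me3, which the rule did not use, was present at nearly all members. It was called at 95.1% of members in BT-2, 94.6% in BT-6, 95.2% in BT-7, 93.0% in BT-9 and 94.7% in BT-10. The K27M mean was 94.9% ± 0.343 (SD, n = 2) and the WT mean 94.3% ± 1.11 (SD, n = 3), a difference of 0.548 percentage points (two-sided exact permutation test, p = 0.9, with 0.1 the smallest possible). The sign of this small difference turned without BT-9, to -0.0808 points. The 15317 recurrent regions whose peaks overlapped an island in none of the 6 K27M tumours, called outside regions here, served for comparison. H3K4me3 was called at 71.9% ± 1.72 of outside regions and 94.5% ± 0.858 of members (SD, n = 5). The difference of 22.6 points had the same sign in 5 of 5 tumours (two-sided exact sign-flip permutation test, p = 0.0625, the smallest that 5 tumours allow, adjusted p = 0.125 over 5 tests).

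The H3K4me3 difference was present at every region width. When recurrent regions were split into quartiles of width, members had H3K4me3 at 93.3% to 96.0% and outside regions at 68.8% to 73.7%. H3K4me3 peaks at members were wider, with medians of 1794 to 2074 bp against 1649 to 1756 bp at outside regions, but stood lower in their own lists, at median percentiles of 68.7 to 73.5 against 75.8 to 78.9. All 3 marks were found at 55.4% (BT-7), 56.8% (BT-9) and 70.3% (BT-10) of members in WT tumours, and at 93.6% (BT-2) and 93.3% (BT-6) in K27M tumours, where the rule set 2 of the 3. H3K4me3 was called in all 5 tumours at 1705 members (91.9%) and in none at 66 (3.56%). Those 66 lay in wider islands, with a median of 18.05 kb against 9.5 kb for the 1705. Of the 66, 47.0% had the overlap in no WT tumour, against 10.8% of the 1705. Among the 66 was the chromosome 2 member at 165020603 to 165022277, whose islands spanned 8.0 to 176.0 kb in K27M tumours.

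H3K27ac at members was weaker within each WT tumour than at outside regions. The median percentile of fold enrichment was 75.4, 67.4, 71.8, 79.8 and 72.9 at members in BT-7 to BT-11 and 81.3, 73.4, 76.9, 83.4 and 80.3 at outside regions. Members were lower in each of the 5 tumours, by a mean of 5.59 percentile points (two-sided exact sign-flip permutation test, p = 0.0625, the smallest possible, adjusted p = 0.125 over 5 tests). The lower percentile was not particular to members. The 4304 recurrent regions with the overlap in some but fewer than 5 K27M tumours stood at 72.4 ± 4.45 in WT tumours. Members stood at 73.5 ± 4.58 there (SD, n = 5). Wider regions had stronger peaks, and the gap between members and outside regions was small among the widest. From the narrowest to the widest quartile, members stood at 57.3, 68.2, 75.3 and 85.0 and outside regions at 65.7, 78.1, 83.9 and 85.5. Within members, WT peaks that overlapped an island stood at 68.4 ± 9.06 and those with no island at the peak at 78.3 ± 5.06 (SD, n = 5). In the K27M tumours members stood at 74.5 ± 5.16 and outside regions at 76.4 ± 4.86 (SD, n = 6), values that the rule used. The direction there was mixed. Members were higher in BT-3 (77.0 against 76.4), BT-4 (68.8 against 68.4) and BT-6 (80.3 against 79.3). They were lower in BT-1, BT-2 and BT-5.

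Neurosphere libraries had not entered the rule. In WT hindbrain cultures 44.3%, 48.5% and 51.3% of members lay under an H3K27me3 island, a mean of 48.0% ± 3.53 (SD, n = 3). In K27M hindbrain cultures 36.4%, 33.2% and 33.6% did, a mean of 34.4% ± 1.77 (SD, n = 3). Outside regions lay under islands far more rarely, at 0.725% to 3.16% in the 9 libraries, and all merged regions at 3.89% to 11.6%. All merged regions were also lower in K27M hindbrain cultures, at 4.40% ± 0.379 against 10.1% ± 1.32 in WT (SD, n = 3 each). At members the groups did not overlap. The K27M cultures were lower there by 13.6 points (two-sided exact permutation test, p = 0.1, the smallest possible, adjusted p = 0.125 over 5 tests). The WT library of experiment 3, the highest, was from the only male culture, and both female WT libraries were also above every K27M library.

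That difference moved with the length of the island lists. K27M hindbrain cultures had 42.7 ± 4.71 Mb of autosomal islands and WT cultures 161.8 ± 25.04 Mb (SD, n = 3 each). When only the 4860 islands with the most reads in each library were kept, 31.2%, 30.8% and 31.0% of members were under an island in the K27M and 27.8%, 31.0% and 32.8% in the WT hindbrain cultures. The sign then turned, to a difference of 0.503 points (two-sided exact permutation test, p = 0.8), and the groups overlapped. These islands spanned 38.7 ± 3.12 Mb in K27M and 93.7 ± 10.7 Mb in WT cultures.

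**Figure D3:**
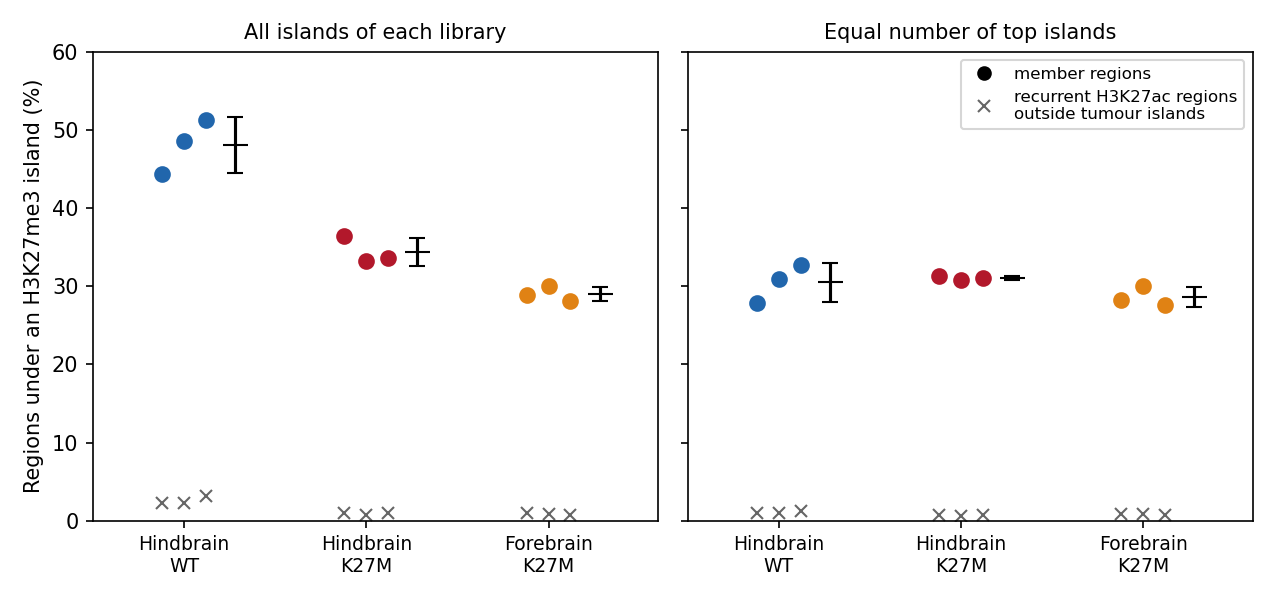
Share of regions under an H3K27me3 island (y axis, percent) in each neurosphere library, with filled points for members and crosses for outside regions, and bars for the mean and SD of the members (n = 3). With all islands (left) the WT hindbrain cultures are highest at 44.3% to 51.3%, and with 4860 islands per library (right) the 3 groups lie between 27.6% and 32.8%.

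Members marked in WT hindbrain cultures were mostly marked in K27M cultures as well. Of the 723 members under an island in all 3 WT libraries, 79.7%, 75.4% and 75.8% were under one in the 3 K27M libraries, a mean of 76.9% ± 2.36 (SD, n = 3). The same share was 47.5% ± 3.20 for 191 outside regions and 55.4% ± 3.37 for 6659 of all merged regions. The rule chose members by islands in K27M tumours and outside regions had no overlap there, so this contrast is a description. Among the 723, 495 were under islands in all 3 and 115 in none of the K27M libraries. The 495 had denser WT islands, at 49.0 ± 3.14 reads per kb against 29.5 ± 3.00 for the 115, and wider ones, at 14.1 ± 2.05 kb against 7.73 ± 2.19 kb (SD, n = 3 WT libraries). The 115 are 6.20% of the members, and the same pattern held for 2.34% of all merged regions. Of regions under an island in all 3 WT libraries, 15.9% of members and 34.3% of all merged regions had this pattern. An example is chromosome 19, 27290329 to 27294077, under an island in all 3 WT hindbrain and no K27M neurosphere library, which carried islands of 4.6 to 10.6 kb in all 6 K27M tumours and of 6.0 and 4.4 kb in WT BT-9 and BT-10 only. The opposite pattern, all 3 K27M and no WT hindbrain library, was found at 6 members (0.323%, against 0.0338% of all merged regions). These were 6 of 544 members and 33 of 3245 merged regions under an island in all 3 K27M hindbrain libraries. The strongest of the 6 was on chromosome 10 from 109889296 to 109894593.

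Forebrain K27M cultures covered fewer members than hindbrain K27M cultures. The shares were 28.9%, 30.0% and 28.1%, a mean of 29.0% ± 0.949 (SD, n = 3), lower by 5.39 points than in the hindbrain and without overlap (two-sided exact permutation test, p = 0.1, the smallest possible, adjusted p = 0.125 over 5 tests). All merged regions were at 3.95% ± 0.0694 in forebrain and 4.40% ± 0.379 in hindbrain K27M cultures (SD, n = 3 each). Both neurosphere comparisons use the same 3 K27M hindbrain libraries. At 81 members (4.36%, against 0.453% of all merged regions) an island was called in all 3 hindbrain and no forebrain K27M library, and at 37 (1.99%, against 0.284%) in all 3 forebrain and no hindbrain K27M library. Members lay under islands more often in general. The 81 were among 544 members under an island in all 3 hindbrain K27M libraries, beside 442 of 3245 for all merged regions. The 37 were among 453 members under an island in all 3 forebrain libraries, beside 277 of 2907 for all merged regions. In total 362 members (19.5%) were under an island in all 9 neurosphere libraries and 743 (40.0%) in none.

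Members shared with more WT tumours were also more often marked in neurospheres. The share under an island in all 3 WT hindbrain libraries was 12.2%, 23.1%, 34.6%, 42.3%, 53.8% and 64.0% for members with the overlap in 0 to 5 WT tumours. In all 3 K27M hindbrain libraries it ran from 8.02% to 51.6%, and in all 3 forebrain libraries from 7.17% to 48.9%. The share without an island in any neurosphere library fell across the same classes from 67.5% to 13.3%. H3K4me3 in all 5 tumours went from 77.6% to 99.1%, and the median K27M tumour island from 7.2 to 12.4 kb. The strongest H3K27ac was found at members with fewer neurosphere islands. In the quartile of members with the highest percentile, 25% were under an island in all 3 WT hindbrain libraries and 52.8% in no neurosphere library, against 47.0% and 30.4% in the lowest quartile. These are descriptions across regions, which share libraries and are not replicates.

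**Figure D4:**
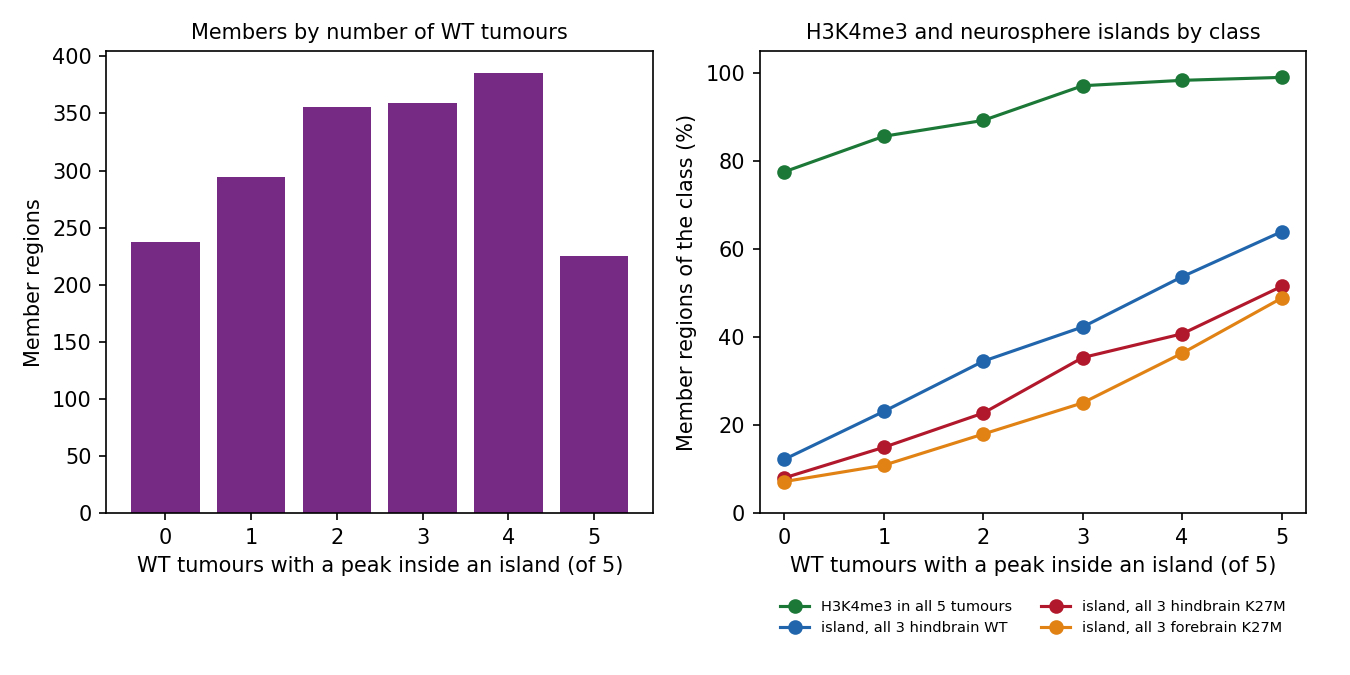
Left, number of members (y axis) by the number of WT tumours, 0 to 5, in which an H3K27ac peak overlapped an island. Right, for each of these classes, the percentage of members with H3K4me3 in all 5 tumours (green) or under an island in all 3 libraries of a neurosphere group, where each line ends higher at 5 WT tumours than at 0, for example 64.0% against 12.2% in WT hindbrain cultures.

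Read counts in called islands were compared where islands were shared. A region needed an island of each library somewhere in it, and not at each member. The counts therefore mix the extent of islands with their level, and are not counts over the members alone. Reads in islands were summed over regions called in every library of a comparison and tested with edgeR's quasi-likelihood method, with Benjamini-Hochberg adjustment over all regions tested and a threshold of 0.05. CPM values are scaled to the reads of a library in these shared regions, adjusted by the TMM composition factor of that library. They are therefore relative values, and no spike-in factor was used. Of 3265 regions called in all 6 hindbrain libraries, 515 held members (652 of the 1856).

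Of the 515, 283 passed the threshold, where 56.0% of all regions tested did. Of these, 181 (35.1% of the 515) were higher in K27M hindbrain cultures, where 26.9% of all regions tested were higher. Another 102 (19.8%) were lower, where 29.0% of all were lower. The median log2 fold was 0.19 for the 515 and -0.11 for all regions. This split depended on scaling: without composition factors, which shift the median of all regions to -1.003, 78 were higher and 285 lower, with a median of -0.70 for the 515. Relative to the median of all regions, those with members were higher by either scaling. Without WT experiment 2, 65 of the 515 were lower.

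The largest increase, at chromosome 2 from 147006601 to 147029000, held 2 members, among them the broad island of the tumours described above. Its island reads were 1402, 1739 and 1561 CPM in the K27M and 8.48, 60.8 and 124 CPM in the WT cultures. The log2 fold was 4.60 with an SE of 0.83 (adjusted p = 0.00312, edgeR). The groups did not overlap, and the WT libraries varied widely among themselves. At chromosome 8, 48492001 to 48499000, the values were 310.3, 387 and 356 CPM in K27M and 51.8, 28.5 and 26.7 CPM in WT cultures, and the log2 fold was 3.30 with an SE of 0.29 (adjusted p = 0.000109, edgeR). At chromosome 14, 122845401 to 122901600, they were 6245, 6406 and 2740 CPM in K27M and 437, 699 and 499 CPM in WT cultures, and the log2 fold was 3.23 with an SE of 0.36 (adjusted p = 0.000359, edgeR).

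The largest decrease among regions with members, at chromosome 11 from 84407201 to 84484400, was uniform across libraries. It had 35.8, 30.1 and 37.2 CPM in K27M and 285, 293 and 296 CPM in WT cultures, and the log2 fold was -3.08 with an SE of 0.14 (adjusted p = 3.06e-05, edgeR). At chromosome 8, 123740401 to 123769600, the level was 15.3, 16.8 and 18.6 CPM in K27M and 124, 109 and 115 CPM in WT cultures, and the log2 fold was -2.78 with an SE of 0.18 (adjusted p = 3.17e-05, edgeR). The fall at chromosome 8, 91506601 to 91592400, which held 3 members, was less firm, and the log2 fold was -2.55 with an SE of 0.85 (adjusted p = 0.0380, edgeR). Its adjusted p rose to 0.110 without K27M experiment 2, and to 0.0926 and 0.0989 without WT experiments 2 and 3.

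Between forebrain and hindbrain K27M cultures, 367 of the 2584 regions tested held members (462 of them). Of the 367, 158 passed the threshold, where 36.3% of all regions did. Of these, 52 (14.2% of the 367) were higher in forebrain, where 17.5% of all regions were higher, and 106 (28.9%) were lower, where 18.9% of all were lower. The median log2 fold was -0.10 for the 367 and 0.04 for all regions. With the sex chromosomes included the counts were 57 and 71 and the median of the 367 turned to 0.02.

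The largest regional difference was at chromosome 8, 94311601 to 94338200, with 2002, 2173 and 2093 CPM in forebrain and 18.2, 25.5 and 46.4 CPM in hindbrain cultures, and the log2 fold was 6.12 with an SE of 0.33 (adjusted p = 2.86e-05, edgeR). The region with 5 members on chromosome 13, 78296801 to 78357400, had 4964, 4572 and 3762 CPM in forebrain and 74.2, 51.2 and 101 CPM in hindbrain cultures, and the log2 fold was 5.87 with an SE of 0.27 (adjusted p = 1.45e-05, edgeR). Forebrain cultures also had more island reads in the region with 6 members on chromosome 7, 77459001 to 77525800. They had 8533, 8814 and 8389 CPM there against 624.9, 444 and 368 CPM in hindbrain cultures. The log2 fold was 4.16 with an SE of 0.20 (adjusted p = 1.52e-05, edgeR). In these 3 regions the lowest forebrain library was over 10 times the highest hindbrain library.

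In the other direction, chromosome 1 from 14284001 to 14306600 had 66.3, 29.2 and 42.6 CPM in forebrain and 475, 700 and 434 CPM in hindbrain cultures, and the log2 fold was -3.53 with an SE of 0.32 (adjusted p = 0.000160, edgeR). Chromosome 1, 50973001 to 50989200, had 45.1, 49.9 and 54.0 CPM in forebrain and 297, 326 and 247 CPM in hindbrain cultures, and the log2 fold was -2.54 with an SE of 0.15 (adjusted p = 3.55e-05, edgeR). Each of these regions held 2 members.

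**Figure D5:**
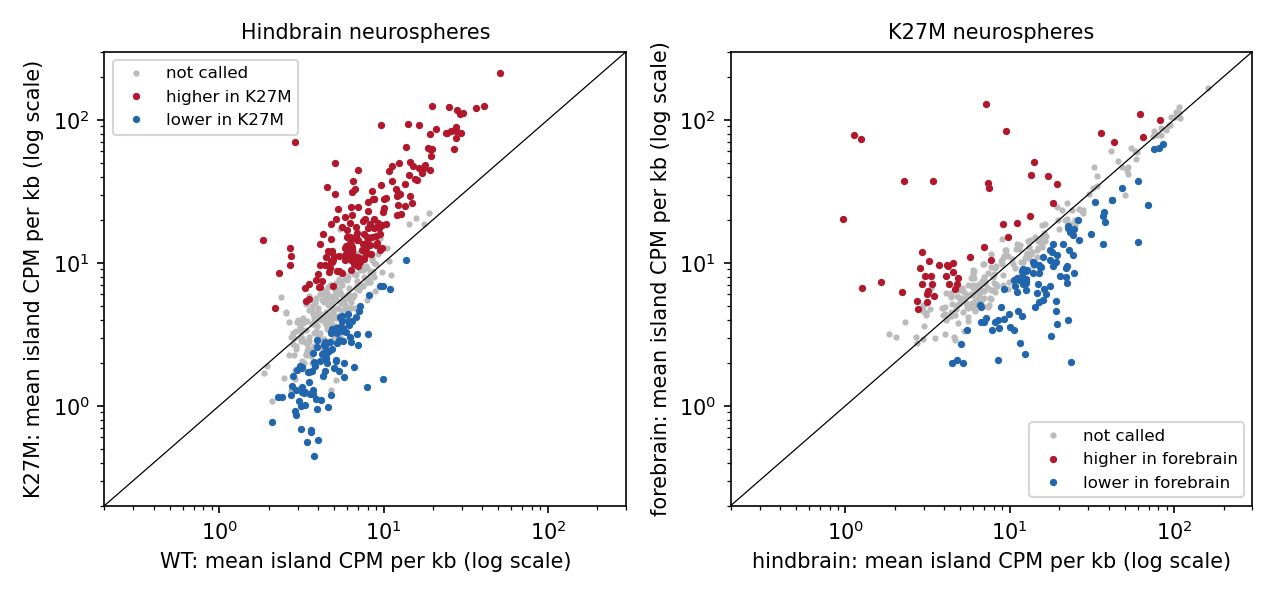
Mean H3K27me3 island reads of regions that hold members, as CPM per kb on log axes, for WT (x) against K27M (y) hindbrain cultures on the left (515 regions) and hindbrain (x) against forebrain (y) K27M cultures on the right (367 regions). Coloured points passed an edgeR adjusted p of 0.05 (red higher, blue lower) and the line marks equal levels; 181 points are red and 102 blue on the left, 52 and 106 on the right.

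The rule used the islands of the K27M tumours, so the tumour read levels and edgeR calls at the members are a description shaped by that choice, and nothing is read from them. Of 3027 regions with an island in all 11 tumours, 589 held members (810 of them). Past the edgeR threshold, 84 of the 589 (14.3%) were higher in K27M tumours and 10 (1.70%) lower. Of all regions tested, 7.43% were higher and 5.35% lower. The median log2 fold was 0.31 for the 589 and -0.10 for all regions. Without composition factors, 63 of the 589 were higher and 30 lower, with medians of 0.10 for the 589 and -0.30 for all regions. The counts also varied with 1 tumour: without WT BT-7, 54 were higher, and without any 1 of K27M BT-2, BT-4, BT-5 or BT-6, 6 were lower. At chromosome 6, 114209001 to 114246600, K27M tumours ranged from 96.7 to 243 CPM with a median of 144, and WT tumours from 15.51 to 57.0 CPM with a median of 27.9, without overlap. At chromosome 11, 79776001 to 79800600, K27M tumours ranged from 12.4 to 44.6 CPM with a median of 27.7, and WT tumours from 54.3 to 167 CPM with a median of 99.7, again without overlap.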

How the data were processed

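H3K27me3, H3K27ac and H3K4me3 were measured by chromatin immunoprecipitation and sequencing, and lists of 36 of the 59 samples were used. The other 23, all input DNA, were not analysed here. The submitters' processing notes list, without roles, SICER 1.1, MACS2, bedtools 2.25.0, BWA 0.7.12, SAMtools, Picard and R 2.14.0, and the mm9 build. No deposited list pools samples. The deposited H3K27me3 islands carry a count of reads (200 bp windows, 600 bp gaps, both read from the file names). They hold 1878972 to 14400936 autosomal reads per tumour. Each deposited H3K27ac or H3K4me3 peak has the authors' score, its ratio over background (fold enrichment), -log10 values of p and q, and a summit offset, used here for summit positions. Fold enrichment was used only as a percentile within its own list. Total depth is unknown, and no count exists where no island was called.

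Peaks that shared 1 bp were merged, on 19 autosomes. Shares of regions were compared by exact permutation tests over samples, and island counts with edgeR 4.0.16 (quasi-likelihood, TMM factors) in R 4.3.3, after a check on simulated counts. DESeq2 1.42.0 was an alternative. Python 3.11.15, numpy 2.4.6, pandas 2.3.3 and matplotlib 3.10.9 did the rest. The labels do not say that samples of a group are separate animals, so p-values measure the spread between samples. The labels give the neurosphere libraries an experiment id shared across groups, which was taken as a possible pairing. Deviations of same-numbered libraries correlated at 0.103, 0.0604 and 0.135 for hindbrain K27M with WT and at 0.192, 0.166 and 0.161 for forebrain with hindbrain K27M, so 1 hindbrain pair was under 0.1. The experiment block was an alternative.

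The members, groups and measures were chosen with earlier results of these data known. Regions named are among the first 5 by H3K27ac percentile, by island width, by presence in all K27M and no WT tumour, by presence in all 11 tumours with or without H3K4me3, by call in 1 hindbrain genotype only, and by absolute log2 fold per direction. The largest clusters were named after their values were seen. Build mm9 came without a genome or annotation here, so positions are given without the gene, exon, intron or UTR there, and without sequence.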

Additional observations from a re-analysis of the deposited data

How the results depend on the processing

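The number of members was 981 with the overlap required in 6 of 6 K27M tumours, 2802 with 4 or more, 1182 with equal numbers of strongest islands and peaks, and 2014 to 2533 without 1 K27M tumour. The WT share with both marks ranged from 36.9% to 59.2% over 19 alternatives (45.1% to 56.8% without 1 tumour), with the lower value from equal lists. The lists chosen with 1 K27M or 1 WT tumour left out were added after seeing the data. The K27M minus WT difference in H3K4me3 share ran from -0.0808 to 0.970 points without 1 tumour, and reversed only without WT BT-9 among 19 alternatives. The H3K4me3 difference between members and outside regions was 16.3 to 27.5 points over 19 alternatives, and 22.2 to 26.1 without 1 tumour. The percentile difference was -7.19 to -4.13 over 20 alternatives, and -6.09 to -4.19 without 1 tumour. The hindbrain share difference was -15.5 to -12.0 points without 1 library and reversed to 0.503 with equal numbers of neurosphere islands. The forebrain difference was -5.99 to -2.41 over 22 alternatives, and -5.99 to -4.37 without 1 library. None of these tests could pass 0.05 after adjustment.

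With the experiment number as a block, the hindbrain share difference was -13.6 points and the forebrain one -5.39, each at p = 0.25, the smallest that 3 pairs allow by exact sign flips. The block gave 280 regions with members called in the hindbrain test (177 higher, 103 lower) and 160 in the forebrain test (58 higher, 102 lower), against 283 and 158 without it, and ended no call of a named region. Over all regions tested, the calls went from 1827 to 1789 in the hindbrain test and from 939 to 990 in the forebrain test.

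Without composition factors 78 hindbrain regions with members were higher and 285 lower, and 30 tumour regions lower. Without 1 library, hindbrain calls ran from 226 to 299 (161 to 197 higher, 65 to 102 lower), forebrain calls from 115 to 152 (39 to 55 higher, 76 to 97 lower) and tumour calls from 62 to 120 (54 to 110 higher, 6 to 10 lower). DESeq2 called 147 tumour regions with members, 130 higher and 17 lower, and 639 tumour regions in all against 387 by edgeR. The latter count was 233 without K27M BT-6 and 259 without WT BT-7. The causes were not tested. Island lists leave out marked chromatin below the caller's threshold, so absence of an island is not absence of the mark, and the depth of each library limits what was called.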
